A study of Mus musculus with 108 samples.

Results

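The genes described here encode 10 proteins of the nuclear lamina and inner nuclear membrane: the lamins Lmna, Lmnb1 and Lmnb2, the membrane proteins Lbr, Emd, Tmpo, Lemd3, Sun1 and Sun2, and the DNA-binding protein Banf1. They were chosen by name, as the rows of the gene count files whose Ensembl mouse identifier maps to these symbols, and are 10 of 55573 gene identifiers. All 10 were found, and all 10 passed the filter on low counts in both library types. Lemd3 passed it in polyA only through the cKO females at GV and GV3h, where it is high, so its polyA calls that involve those groups are a description and support no count of members. The study profiled single mouse oocytes that lacked Exosc10, a nuclease subunit of the RNA exosome, through an oocyte-specific knockout (cKO), and single oocytes of control mice. The labels name neither the Cre driver nor the alleles of cKO and control females, and give no ages. Stages were GV (germinal vesicle, with an intact nucleus), GV3h (3 hours of culture in M2 medium) and MII (mature eggs dissected from the oviduct). The 64 polyA libraries hold RNA captured on oligo(dT) beads, and the 22 RiboMinus libraries hold RNA reverse transcribed with random hexamers, so that a poly(A) tail was not needed. A further 22 ribosomal RNA libraries of the series were not used here.

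In the polyA libraries the groups were 15 cKO oocytes from 2 females and 7 control oocytes from 2 females at GV. At GV3h there were 11 cKO and 8 control oocytes, each set from 3 females. At MII there were 15 cKO and 8 control oocytes, again from 3 females each. The RiboMinus groups were 7 cKO and 8 control oocytes at GV, from 2 females each, and 4 cKO oocytes from 2 females and 3 control oocytes from 1 female at MII. Oocytes of 1 female share that animal, so counts were summed per female for every main test, and oocytes are shown one by one as a description. Single oocytes were the unit only in 1 alternative fit and in the tests for a lone extreme oocyte. The single female behind the RiboMinus MII controls was assumed to vary like the other groups, and in every comparison that uses it, female and group cannot be told apart.

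The nuclear lamina is a meshwork of lamin filaments under the inner nuclear membrane, where it holds chromatin, nuclear pores and the LINC bridges to the cytoskeleton in place. LBR and the LEM-domain proteins (emerin from Emd, LAP2 from Tmpo and MAN1 from Lemd3) anchor lamins and chromatin to the membrane, the LEM domain by binding BAF, the product of Banf1. SUN1 and SUN2 form the inner membrane side of the LINC complex. At germinal vesicle breakdown the lamina is phosphorylated and taken apart, and the MII egg has no nucleus until fertilization, when an envelope is rebuilt from stored maternal protein and mRNA. Stored oocyte mRNAs can gain or lose poly(A) tails during maturation, and elements close to the poly(A) signal at the 3′ end of the mRNA take part in that.

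In the mouse annotation Lmna lies at chr3:88480147-88509956, Lbr at chr1:181815335-181843046, Lemd3 at chr10:120923413-120979332, Sun1 at chr5:139200637-139249840 and Banf1 at chr19:5364638-5367168 (GRCm38). Counts are per gene, so isoforms are counted together. Exon bases are shared with another gene for Lbr (Dnah14), Banf1 (Eif1ad), Sun1 (4930520M14Rik), Tmpo (Gm26765) and Sun2 (Gm16575), on the opposite strand, and on the same strand for Lbr (the ribosomal RNA gene model Gm26004) and Emd (the pseudogene Gm14686). The strand setting of the counting is not given in the sources used here, so reads from such bases cannot be told apart. Lmna, Lmnb1, Lmnb2 and Lemd3 share none with another protein-coding or noncoding gene of the annotation.

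Because the results turn on polyA against RiboMinus libraries, short 3′-end windows of 4 members are shown first. The last 150 bases of each gene's reference transcript (GENCODE vM21, GRCm38, the same build as the submitters' mm10) were searched on the sense strand for the cytoplasmic polyadenylation elements TTTTAT and TTTTAAT and the poly(A) signals AATAAA and ATTAAA. Each window is 30 bases, written 5′ to 3′, and the capitals mark the match.
Lbr: ggtgcaagttgtTTTTAATttgatgtttgg
Lmnb2: acagattgtttcTTTTATaagatgcatgcc
Sun1: tttcaagtgattAATAAAagtgtgtatttc
Banf1: gatttttaaattAATAAAatcagtggcctt
The Lbr window lies at chr1:181815383-181815412 on the minus strand, and its element starts 66 bases from the transcript's end, ahead of poly(A) signals at 38 and 6 bases. The Lmnb2 window lies at chr10:80901463-80901492 on the minus strand, with the element 117 bases and an AATAAA signal 22 bases from the end. The Sun1 window (chr5:139249805-139249834, plus strand) holds the nearer of the AATAAA signals at 71 and 24 bases, and the Banf1 window (chr19:5364642-5364671, minus strand) holds its AATAAA at 22 bases. TTTTAT or TTTTAAT was found in 2 of the 10 members, the Lbr and Lmnb2 windows shown, and in none of the other 8, Sun1, Banf1, Lmnb1 and Tmpo among them. Lmna and Emd held neither poly(A) signal in the searched bases. Among 21711 protein-coding genes, 21.3% had TTTTAT or TTTTAAT in the same stretch and 75.9% had AATAAA or ATTAAA. These matches describe letters only, and no tail length was measured.

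Exosc10 itself separated the genotypes in every group. Its highest cKO oocyte had 8.29 CPM (read counts scaled to library size, with TMM factors) and its lowest control oocyte had 43.0 CPM. Total gene counts per oocyte ran from 4638718 to 8735914 in polyA and from 12319658 to 62675760 in RiboMinus libraries. All 12 oocyte markers examined (such as Zp3 and Gdf9) were detected in each group, with summed levels of 17100 to 30400 CPM per oocyte in polyA and 7210 to 14000 CPM in RiboMinus libraries. By the edgeR test used below, 4 of these 12 were higher in cKO at polyA GV3h (median log2 0.03). At polyA GV 2 were higher (median −0.08) and at polyA MII 6 (median 0.62), with none lower in polyA. At RiboMinus MII 2 were lower in cKO (median −0.33) and none was higher. Of all genes 7.38% passed at polyA GV, 25.2% at GV3h, 18.9% at polyA MII and 7.3% at RiboMinus MII. Of 11 granulosa and cumulus markers tested in polyA, 1 was higher in cKO at GV3h (median 1.01) and 1 lower at MII. At RiboMinus MII 1 of 12 was higher. The 12 granulosa and cumulus markers summed to 21.9 to 141 CPM per oocyte. Their summed level was 79.0 to 141 CPM in polyA MII controls and 41.0 to 80.3 CPM in polyA GV controls, while Foxl2, Fshr, Inha and Amhr2 had no count in the former. The 5 blood and immune markers reached 62.2 CPM in 1 RiboMinus MII cKO oocyte and at most 13.1 CPM in polyA libraries. The 1 of them tested in polyA was higher in cKO at MII (log2 2.95). The part of such RNA in the results below was not tested. The count files hold 0 spike-in rows, so each level is relative to the other genes of its library and a change in RNA per oocyte cannot be seen.

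Lbr and Banf1 led the members by level per kilobase of exon, the scale used wherever genes are compared with each other. Exon length joins all annotated exons of a gene: 10998 bases for Tmpo, 7596 for Sun1, 5838 for Lmna and 2962 for Lmnb1. Their reference transcripts have 3772, 4134, 3156 and 2843 bases. The order of genes here and at MII depends on that choice, and scaling by transcript length was not done. In polyA GV controls Lbr had 111 ± 9.82 CPM per kb (SD, n = 7 oocytes) and Banf1 105 ± 16.6, which did not differ beyond their spread. Lmna followed with 42.3 ± 2.46, then Sun1, Lmnb1 and Emd between 11.6 and 13.9, Tmpo with 4.37 and Lmnb2 with 3.04. Sun2 (0.933 CPM per kb) and Lemd3 (0.0569 CPM per kb) were lowest. The lamin order in polyA GV controls was Lmna above Lmnb1 above Lmnb2, each step larger than the SD. In RiboMinus GV cKO oocytes Lmnb1 (16.3 ± 5.69) and Lmna (15.7 ± 5.77) did not differ beyond their spread.

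**Figure D1:**
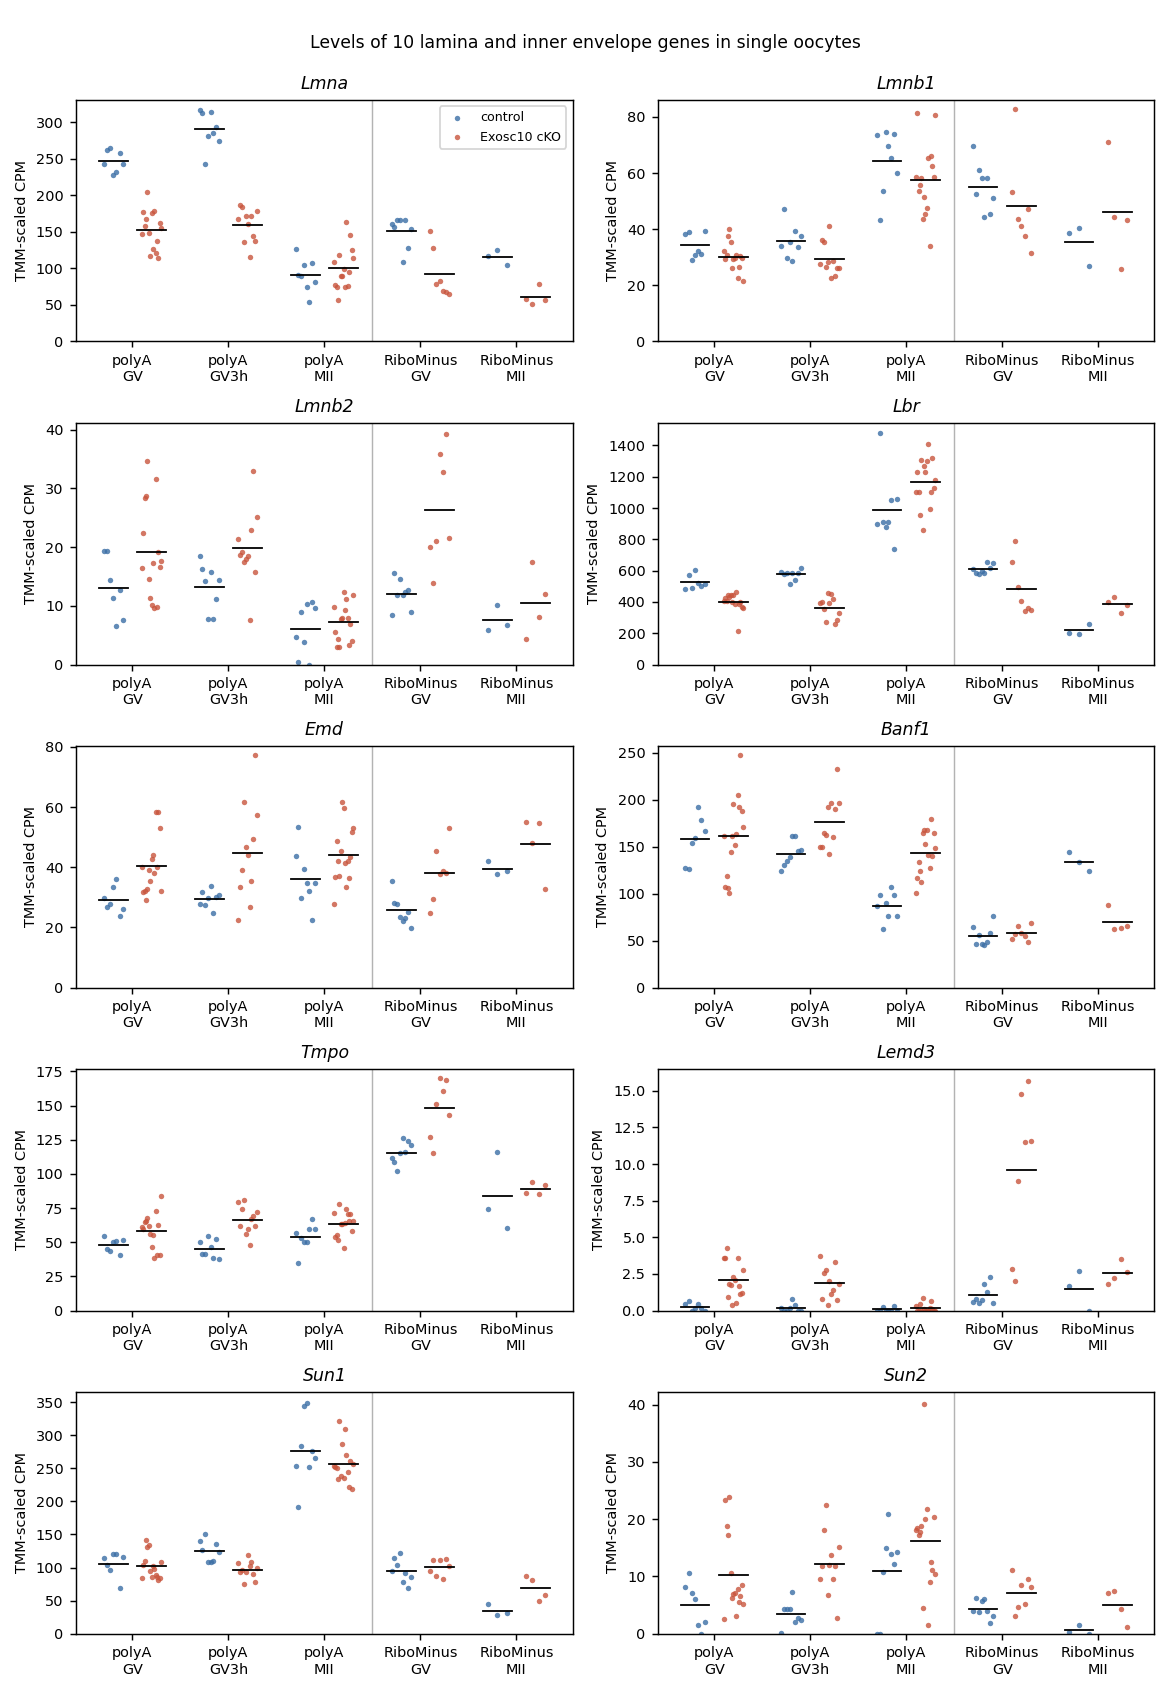
Level of each of the 10 genes in single oocytes. The y axis is TMM-scaled CPM on a linear scale from 0, each point is 1 oocyte (blue control, red Exosc10 cKO), black lines are group means, and the x axis gives library type and stage with polyA left and RiboMinus right of the grey line. Lmna in polyA GV and GV3h oocytes shows control points from 228 to 317 above cKO points from 114 to 205, and Lbr and Sun1 are highest at MII in the polyA panels and lower at MII than at GV in the RiboMinus control panels.

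The order changed at MII, and differently by library type. In polyA MII controls Lbr had 208 ± 46.7 CPM per kb (n = 8 oocytes), Banf1 58.1 ± 9.77 and Sun1 36.4 ± 6.75, while Lmna stood at 15.6 ± 3.78, within the spread of Lmnb1 (21.7 ± 3.79) and Emd (14.4 ± 3.71). In RiboMinus GV controls Lbr came first, at 128 ± 6.18 CPM per kb (n = 8), apart from Banf1 (36.9 ± 7.48), which lay within the spread of Lmna (25.8 ± 3.66). In RiboMinus MII controls Banf1 came first with 89.5 ± 6.79 CPM per kb (n = 3), ahead of Lbr with 46.0 ± 6.93. Sun1 was then at 4.49 ± 1.17, within the spread of Tmpo at 7.61 ± 2.61.

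At GV3h the relative polyA levels of Lmna and Lbr were lower in oocytes without Exosc10 than in controls. Sun1 was also lower, a call that was lost when scaled by library totals. The genotype difference in the change from GV to GV3h passed for none of them. In the GV3h comparison 4 of 10 members passed the test (edgeR quasi-likelihood test on counts per female, Benjamini-Hochberg adjusted p under 0.05), Lemd3 higher and Lmna, Lbr and Sun1 lower. Of all 19242 genes tested, 25.2% passed there, which is the background for the members' 4 of 10, or 3 of the 9 other than Lemd3. At GV only Lemd3 of the 10 passed, so none of the other 9 did, where 7.38% of genes passed. At MII 1 of 10 passed, against 18.9%. The median log2 fold change of the members at GV3h, Lemd3 included, was 0.35, and that of all genes was 0.07.

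Lmna, which encodes the A-type lamins A and C, counted together here, was lower in cKO at GV3h. At GV its lowest, median and highest oocytes were 114, 155 and 205 CPM in cKO and 228, 243 and 264 CPM in controls. At GV3h they were 116, 167 and 186 CPM in cKO and 242, 289 and 317 CPM in controls. The genotypes did not overlap at either stage, every cKO oocyte lying below every control oocyte. Oocyte groups did not overlap for 2 of 10 members at GV and for 2 at GV3h, in both cases Lmna and Lbr, against 4.9% and 9.96% of all genes. The fitted fall was −0.93 on the log2 scale at GV3h (SE 0.18, edgeR adjusted p = 0.00138). At GV the value was −0.72 (SE 0.21), with an edgeR adjusted p of 0.051, which missed the threshold. Leaving out the MII female V842, V897 or V836 from the shared spread gave adjusted p of 0.0248, 0.0378 and 0.0425 at the same −0.72. At MII the genotypes overlapped, with 57.3 to 164 CPM in cKO and 53.9 to 126 CPM in controls, and the value was −0.10 (SE 0.17, edgeR adjusted p = 0.729).

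Lbr encodes the lamin B receptor, which binds heterochromatin and also has sterol reductase activity. Its cKO oocytes had 213, 405 and 461 CPM (lowest, median, highest) at GV and its control oocytes 480, 517 and 607. At GV3h the values were 262, 392 and 455 CPM in cKO against 516, 587 and 614 in controls. Again no cKO oocyte reached a control oocyte. The fall was −0.70 (SE 0.13, edgeR adjusted p = 0.00127) at GV3h, a 1.62-fold lower level, and the GV value was −0.44 (SE 0.16, adjusted p = 0.104). At MII Lbr was at 858 to 1410 CPM in cKO and 738 to 1480 CPM in controls, and the difference of 0.12 (SE 0.13) gave an edgeR adjusted p of 0.543.

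Lemd3, whose product MAN1 binds SMAD proteins as well as BAF, was the member with the lowest mean level per kilobase in each polyA group, and had the largest genotype fold among members at polyA GV and GV3h. Control GV oocytes had 0 to 4 reads each, 12 in all over 7 oocytes, and cKO GV oocytes had 3 to 31 reads each, 240 over 15 oocytes. At GV3h the sums were 8 reads over 8 control oocytes and 167 reads over 11 cKO oocytes. Medians were 1.79 CPM in cKO against 0.167 CPM in controls at GV, and 1.84 against 0.0925 at GV3h, with some oocytes overlapping at each stage. In control females 1 to 7 reads were counted at these stages and in cKO females 30 to 134, and no polyA control female reached the level of the filter. The log2 fold change was 2.94 (SE 0.84, edgeR adjusted p = 0.0441) at GV and 3.31 (SE 0.74, adjusted p = 0.00411) at GV3h. The GV call was lost without V857 (2.55, adjusted p = 0.172), V856 (3.46, 0.142) or V889 (2.53, 0.325), which are GV females, and without 5 females of other stages, at adjusted p of 0.0529 to 0.0697. It was also lost with no filter on low counts (2.99, adjusted p = 0.0757) and in a fit of the GV groups alone (2.93, adjusted p = 0.156). By MII 8 of 15 cKO oocytes and 6 of 8 control oocytes had no Lemd3 read.

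Sun1, the SUN protein that also tethers telomeres to the envelope in meiotic prophase, was lower in cKO at GV3h. Its oocytes overlapped, with 75.0, 96.2 and 119 CPM (lowest, median, highest) in cKO and 108, 125 and 151 CPM in controls. The value of −0.46 (SE 0.13, edgeR adjusted p = 0.0174) moved to −0.23 (adjusted p = 0.184) when scaled by library totals. Without V946, V993, V951 or V982 it was between −0.45 and −0.43, with adjusted p of 0.0544 to 0.0655. Sun2 had 0.185, 3.52 and 7.22 CPM in GV3h controls and 2.80, 11.9 and 22.5 CPM in GV3h cKO oocytes, and its value of 1.72 (SE 0.87) had an edgeR adjusted p of 0.165. Without V836, an MII control female with no Sun2 read, the same 1.72 had an adjusted p of 0.0104.

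The B-type lamins, Emd and Tmpo passed in none of the 5 genotype comparisons in the main fit (counts per female, TMM scaling, all groups of the library type). Fits of only the groups compared, or with oocytes as replicates, called more members at GV3h, including from among these genes. With library totals, under which the median of all genes at GV3h was 0.294, Tmpo (0.67, edgeR adjusted p = 0.00697), Emd (0.72, adjusted p = 0.0253) and Banf1 (0.49, adjusted p = 0.0438) passed at GV3h. Lmnb1, which encodes lamin B1, had 27.6 CPM in the median GV3h cKO oocyte and 34.9 CPM in the median control (log2 −0.36, SE 0.16, edgeR adjusted p = 0.112). Lmnb2, which encodes lamin B2, had medians of 18.7 and 14.3 CPM at GV3h (0.44, SE 0.43, adjusted p = 0.492). Tmpo, whose LAP2 isoforms are counted together, had 48.2 to 80.6 CPM in cKO and 37.5 to 54.7 CPM in controls at GV3h, a difference of 0.45 (SE 0.16) with adjusted p = 0.0569. That p passed without V983 (0.59, adjusted p = 0.020) or V836 (0.44, adjusted p = 0.0464). Emd had medians of 44.1 and 30 CPM in GV3h cKO and control oocytes (0.49, SE 0.23, adjusted p = 0.127).

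Banf1 was the member called at MII. Its polyA MII oocytes had 101, 141 and 179 CPM (lowest, median, highest) in cKO and 62.8, 88.1 and 107 CPM in controls, overlapping narrowly. The rise was 0.54 on the log2 scale (SE 0.18, edgeR adjusted p = 0.0437), a 1.45-fold higher level in cKO. At the same stage the 12 oocyte markers summed to 25400 to 30400 CPM in cKO and 21500 to 26200 CPM in controls, and their part in the Banf1 difference was not tested. The Banf1 call sat close to the threshold: 10 of the 16 leave-one-female-out fits lost it, the value ranging down to 0.37 (adjusted p = 0.182) without V897, and DESeq2 size factors gave 0.50 (adjusted p = 0.0619). None of the 10 members had separate oocyte groups at polyA MII, where 2.98% of all genes did.

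**Figure D2:**
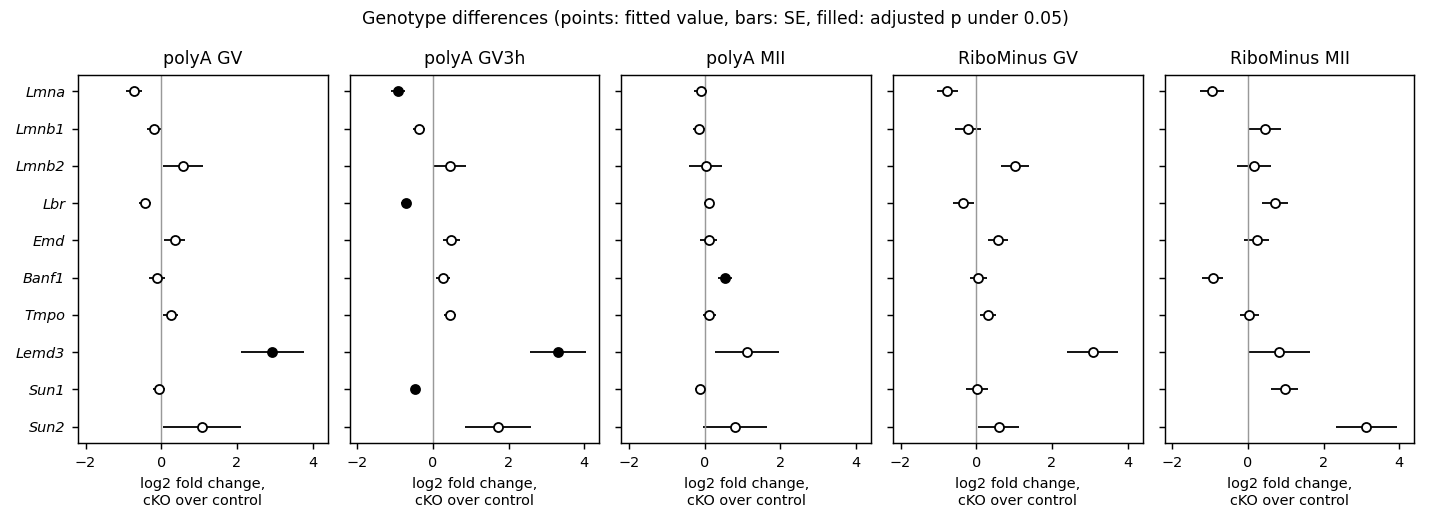
Genotype difference of each gene in the 5 comparisons of cKO with control. The x axis is the log2 fold change (cKO over control) from the edgeR fit, bars are 1 SE, and filled points have an adjusted p under 0.05. Lmna lies between −0.95 and −0.72 in polyA GV, polyA GV3h and both RiboMinus panels and at −0.10 in polyA MII, and Lemd3 lies at 2.94, 3.31 and 3.08 in the GV and GV3h panels.

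In RiboMinus libraries, which do not select for poly(A) tails, no member passed the edgeR test for genotype. At GV 0 of 10 passed, and 0.0315% of 25425 genes did. The members' count at an unadjusted p under 0.05 was 3 (Lmna, Lmnb2 and Lemd3), beside 14.7% of genes, and DESeq2 called 1, beside 8.46%. Lmna had 64.5, 78.7 and 151 CPM (lowest, median, highest) in cKO and 108, 158 and 166 CPM in controls, for a value of −0.76 (SE 0.27, edgeR adjusted p = 0.262). Lemd3 had 2.0, 11.5 and 15.7 CPM in cKO and 0.501, 0.752 and 2.29 CPM in controls (3.08, SE 0.67, adjusted p = 0.117). Lmnb2 had 13.9 to 39.2 CPM in cKO and 8.41 to 15.6 CPM in controls (1.02, SE 0.37, adjusted p = 0.273). No member had separate oocyte groups at RiboMinus GV, against 1.6% of genes.

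The cKO females of the RiboMinus GV group differed from each other. The 3 oocytes of V1126 had 78.7, 128 and 151 CPM of Lmna, and the 4 oocytes of V1131 had 64.5 to 83.2 CPM. For Lbr they had 496, 656 and 790 CPM in V1126 and 344 to 405 CPM in V1131. Lemd3 was at 2.0, 2.86 and 8.87 CPM in V1126 and 11.5 to 15.7 CPM in V1131. The V1126 and V1131 oocytes did not overlap for Lbr or Lemd3, and for Lmna 1 V1126 oocyte (78.7 CPM) lay within the V1131 range. Exosc10 was at most 8.29 CPM in every cKO oocyte of the group. Without V1126 Lemd3 passed, at 3.59 (SE 0.67, edgeR adjusted p = 0.0336).

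At RiboMinus MII 0 of 10 members passed for genotype, against 7.3% of genes, while 4 members (27.4% of genes) had an unadjusted p under 0.05 and DESeq2 called 3 (26.6% of genes). Lmna was at 51.0, 56.7, 58.5 and 78.2 CPM in the 4 cKO oocytes and at 105, 117 and 125 CPM in the 3 control oocytes. Banf1 was at 61.9, 63.2, 65.2 and 88.4 CPM in cKO and at 124, 134 and 144 CPM in controls. Both were lower in each cKO oocyte, with values of −0.95 (SE 0.32, edgeR adjusted p = 0.0979) for Lmna and −0.93 (SE 0.27, adjusted p = 0.0693) for Banf1. Lbr was at 331, 379, 402 and 429 CPM in cKO and at 198, 202 and 257 CPM in controls (0.71, SE 0.34, adjusted p = 0.217). Sun1 was at 49.0, 59.0, 81.4 and 86.7 CPM in cKO and at 27.5, 30.6 and 44.2 CPM in controls (0.97, SE 0.36, adjusted p = 0.125). Both were higher in each cKO oocyte.

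Oocyte groups were thus separate for 4 of 10 members at RiboMinus MII, and for 26.3% of all genes. Sun2 had 1.22, 4.24, 7.08 and 7.45 CPM in cKO and 0, 0.325 and 1.46 CPM in controls, 27 reads over 3 oocytes, and its value of 3.13 (SE 0.80) had an edgeR adjusted p of 0.0503. It passed without V1167 (3.65, adjusted p = 0.0183), as did Sun1 (1.27, adjusted p = 0.0367), and Banf1 passed without V1166 (−1.11, adjusted p = 0.0492). Banf1 thus had a positive genotype value at polyA MII and a negative one at RiboMinus MII. The difference between those values was not tested.

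The 3 hours of culture gave no call for any member. Between GV and GV3h 0 of 10 members passed the edgeR test in control and 0 in cKO oocytes, and 0.0% of 19242 genes passed in either genotype. No member had an unadjusted p under 0.05 (2.21% of genes in controls and 1.94% in cKO did), and DESeq2 called 0 members in each genotype (0.102% and 0.113% of genes). Oocyte groups overlapped for all 10 members, while 0.52% of genes in controls and 0.0624% in cKO had separate groups. The log2 values of the 8 members other than Lemd3 and Sun2 lay between −0.16 and 0.28.

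From GV to MII, Lbr, Sun1 and Lmnb1 rose and Lmna fell in polyA libraries of both genotypes. In controls 5 of 10 members passed between GV and MII, against 42.5% of all genes, and in cKO 6 of 10 (5 of the 9 other than Lemd3), against 44.7%. Banf1 also fell in controls, and Lmnb2 and Lemd3 also fell in cKO. The median value of the members, Lemd3 included, was 0.31 in controls and 0.13 in cKO, and that of all genes was −0.26 and −0.33.

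Sun1, of the LINC complex, had the largest rise among members in controls. Its GV control oocytes had 69.5, 114 and 121 CPM (lowest, median, highest) and its MII control oocytes 191, 271 and 349 CPM. In cKO the values were 80.8, 97.3 and 142 CPM at GV and 218, 252 and 321 CPM at MII. The stages did not overlap in either genotype, with log2 changes of 1.39 (SE 0.15, edgeR adjusted p = 2.13e-06) and 1.32 (SE 0.15, adjusted p = 4.02e-06). Lbr, from the GV and MII levels given above, rose by 0.99 (SE 0.15, adjusted p = 5.31e-05) in controls and by 1.55 (SE 0.15, adjusted p = 8.99e-07) in cKO. Its stages did not overlap either. Lmnb1 went from 29.2, 32.1 and 39.4 CPM at GV to 43.3, 67.5 and 74.6 CPM at MII in controls, a rise of 0.94 (SE 0.18, adjusted p = 0.000588), and rose by 0.99 (SE 0.18, adjusted p = 0.000359) in cKO.

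These rises were smaller, and still past the test, with scaling by library totals, which moved the median of all genes to −0.692 in controls and −0.855 in cKO. Lmnb1 was then at 0.50 in controls and 0.47 in cKO, Lbr at 0.56 and 1.02, and Sun1 at 0.96 and 0.80 (edgeR adjusted p of 0.0432 or less). The falls of Lmna in cKO (−1.26) and of Banf1 in controls (−1.22) were larger.

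Lmna fell by 1.35 on the log2 scale in controls (SE 0.19, edgeR adjusted p = 3.07e-05), with no overlap between the 7 GV and 8 MII oocytes. In cKO it fell by 0.73 (SE 0.19, adjusted p = 0.00572), from a GV level whose difference from controls did not pass (edgeR adjusted p = 0.051). That call was lost without V857 (−0.58, adjusted p = 0.0708). Banf1 fell by 0.79 in controls (SE 0.19, adjusted p = 0.00358), and without V889 the value was −0.56 (adjusted p = 0.0929). Its cKO value was −0.14 (SE 0.19, adjusted p = 0.60), and −0.67 (adjusted p = 0.00745) by library totals. Lmnb2 fell by 1.63 in cKO (SE 0.47, adjusted p = 0.0103), from a median of 17.3 to 7.76 CPM, a call lost without V857 (−1.20, adjusted p = 0.115). In controls Lmnb2 went from a median of 12.7 to 6.84 CPM (−1.07, SE 0.48, adjusted p = 0.0832), and passed without V896 (−1.57, adjusted p = 0.0202) and by library totals (−1.50, adjusted p = 0.0186).

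Lemd3 fell by 3.46 in cKO (SE 0.75, edgeR adjusted p = 0.00136), from 240 reads at GV to 18 reads at MII over 15 oocytes each. In controls, with 12 reads at GV and 4 at MII, its value was −1.65 (SE 0.89, adjusted p = 0.151). Emd and Tmpo kept values of 0.40 or less in both genotypes, with edgeR adjusted p of 0.227 or more. Sun2 had medians of 6 and 13 CPM in GV and MII controls (0.87, SE 0.96, adjusted p = 0.499). It passed without V836, at 1.45 (adjusted p = 0.0399), a female whose removal from the fit also let Sun2 pass at GV3h. Stages were separate for 5 of 10 members in controls and for 2 of 10 in cKO (Sun1 and Lbr), against 26.4% and 17.6% of all genes.

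In RiboMinus libraries the control values of Lbr and Sun1 from GV to MII were negative and that of Banf1 was positive, none past the edgeR test. In controls 0 of 10 members passed the edgeR test from GV to MII and 0.00787% of genes did, with 4 members at an unadjusted p under 0.05 (15.1% of genes) and 4 called by DESeq2 (9.23% of genes). Lbr went from 577, 603 and 654 CPM (lowest, median, highest) at GV to 198, 202 and 257 CPM at MII (−1.46, SE 0.36, edgeR adjusted p = 0.137). Sun1 went from 69.5, 92.9 and 122 CPM to 27.5, 30.6 and 44.2 CPM (−1.50, SE 0.37, adjusted p = 0.139). Banf1 went from 45.4, 52.2 and 76.7 CPM to 124, 134 and 144 CPM (1.28, SE 0.27, adjusted p = 0.112). These oocytes did not overlap, nor did those of Lmnb1, Sun2 (both lower at MII) and Emd (higher), so 6 of 10 members were separate, against 15.2% of all genes. All 3 MII oocytes came from V1145, and that female's part in the result cannot be told apart from the stage.

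In cKO oocytes of the RiboMinus libraries 0 of 10 members passed the edgeR test from GV to MII, against 2.32% of genes, with 3 at an unadjusted p under 0.05 (20.3% of genes) and 3 called by DESeq2 (14.9% of genes). Tmpo went from 115, 151 and 170 CPM to 85.4, 86.3, 91.9 and 93.8 CPM in the 4 MII oocytes (−0.77, SE 0.21, edgeR adjusted p = 0.0933). It was the 1 member whose stages did not overlap, against 8.43% of genes. Lmnb2 had a value of −1.55 (SE 0.38, adjusted p = 0.0689), and passed without V1126 (−1.89, adjusted p = 0.040). Lemd3 had a value of −1.92 (SE 0.64, adjusted p = 0.145). Lbr (−0.40, SE 0.27, edgeR adjusted p = 0.422) and Sun1 (−0.54, SE 0.28, adjusted p = 0.313) lay below 0 without passing, as in controls. The Lbr means per female were 647 CPM (V1126) and 365 CPM (V1131) at GV, and 416 and 355 CPM at MII. Lmnb1 was at 0.00 (SE 0.34).

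**Figure D3:**
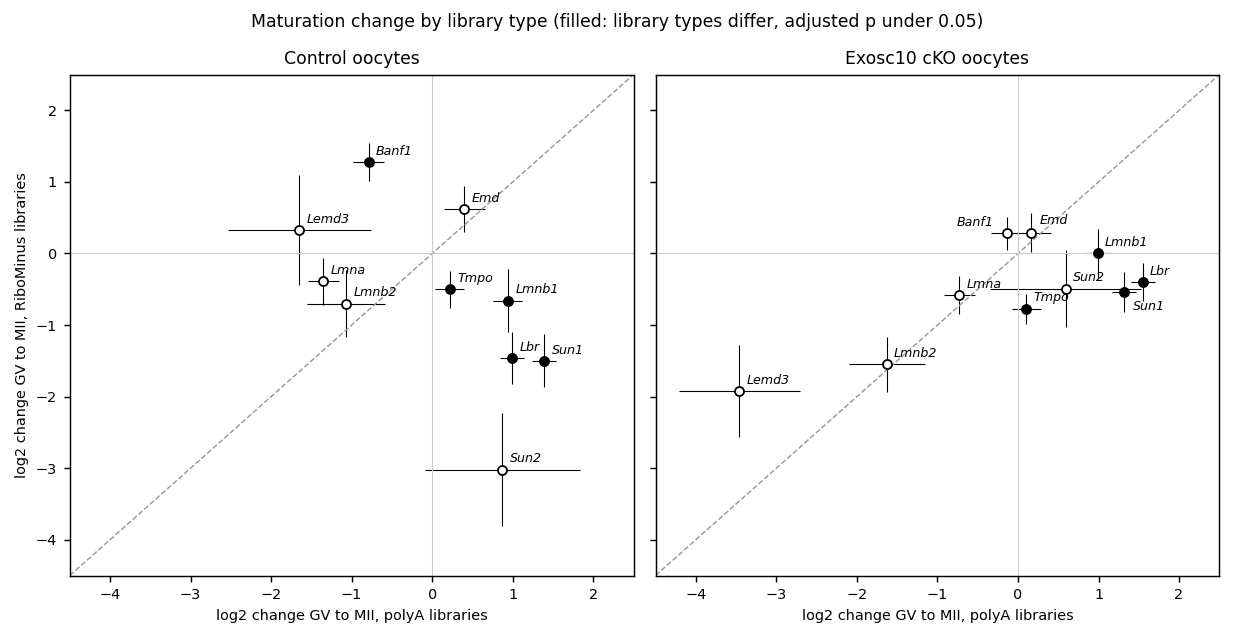
Change from GV to MII of each gene in polyA libraries (x axis) and RiboMinus libraries (y axis), both as log2 fold change, for control oocytes (left) and cKO oocytes (right). Bars are 1 SE, the dashed line marks equal change, and filled points are genes whose change differed between library types at an adjusted p under 0.05. Sun1 and Lbr lie at positive polyA and negative RiboMinus values in both panels, and Banf1 lies on the opposite side of the line in controls.

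Tested directly, the maturation change of Sun1, Lbr, Lmnb1 and Tmpo was higher in polyA than in RiboMinus libraries in both genotypes. That of Banf1 was lower in controls only, where RiboMinus MII is 1 female. The difference (polyA change minus RiboMinus change, 1 edgeR fit of 23 females) passed for 5 of 10 members in controls, where 22.8% of 24777 genes passed, and for 4 of 10 in cKO, where 20.7% did. Sun1 differed by 3.05 (SE 0.34, edgeR adjusted p = 1.19e-06) in controls and 2.04 (SE 0.29, adjusted p = 2.89e-05) in cKO. Lbr differed by 2.61 (SE 0.33, adjusted p = 5.37e-06) and 2.13 (SE 0.28, adjusted p = 1.58e-05). For both genes the polyA value was above 0 and the RiboMinus value below 0 in each genotype, though no RiboMinus value passed by itself. The control values rest on V1145 at MII.

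Lmnb1 differed in the same direction, by 1.76 (SE 0.41, edgeR adjusted p = 0.00292) in controls and 1.17 (SE 0.35, adjusted p = 0.0203) in cKO. Tmpo differed by 0.89 (SE 0.32, adjusted p = 0.0499) and 1.05 (SE 0.28, adjusted p = 0.0095). Banf1 differed the other way in controls, by −1.91 (SE 0.35, adjusted p = 0.000276), while its cKO value was −0.24 (SE 0.31, adjusted p = 0.652). Lmnb2, whose TTTTAT match is printed above, had differences of −0.20 (SE 0.76) and 0.12 (SE 0.67). Lmna had −0.79 (SE 0.37, adjusted p = 0.135) in controls and 0.04 (SE 0.33) in cKO. Sun2, not called in the fit of all females, was at 4.64 (SE 0.96) in controls without V836 and passed there. The Lmnb1 call in cKO was lost without V888 (1.08, adjusted p = 0.0705), V1126 (0.87, 0.129) or V1167 (0.79, 0.100), and the Tmpo call in controls was lost in 16 of the leave-one-female-out fits, at values of 0.78 to 0.97. With scaling by library totals the Lmnb1 value in cKO was 0.48 (adjusted p = 0.32) and the Tmpo values were 0.36 (0.46) in controls and 0.34 (0.394) in cKO. In cKO Lbr was then at 1.41 and Sun1 at 1.35, both still past the test, and Banf1 passed at −0.95 (adjusted p = 0.0151), as did Lmna in controls at −1.33 (adjusted p = 0.00612).

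Whether maturation differed between genotypes was tested as an interaction, and no member passed. The edgeR counts were 0 of 10 for polyA GV to GV3h (0.0% of genes), 0 of 10 for polyA GV to MII (1.94% of genes) and 0 of 10 for RiboMinus GV to MII (0.0% of genes). At an unadjusted p under 0.05 there were 0, 3 and 4 members, beside 1.6%, 16% and 14.2% of genes. DESeq2 called 0 members in each, beside 0.0%, 7.72% and 6.16% of genes. For polyA GV to MII the values with the smallest p were 0.56 for Lbr (SE 0.20, edgeR adjusted p = 0.182), 0.65 for Banf1 (SE 0.28, adjusted p = 0.255) and 0.62 for Lmna (SE 0.28, adjusted p = 0.277). These 3 passed when single oocytes were taken as replicates, which treats oocytes of 1 female as independent. In that fit Lmna was at 0.84 (SE 0.18), an SE that does not measure the spread between females, so the fit supports no call.

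The related envelope genes moved in both directions between genotypes. Among 14 other envelope membrane proteins tested at polyA GV3h, 3 were higher in cKO and 3 lower by the edgeR test, beside 25.2% of all genes called in either direction. With scaling by library totals 4 were higher and 1 lower. Lemd2, the LEM-domain relative of Lemd3, was higher by 5.76 (SE 1.09, edgeR adjusted p = 0.00142), and Nemp1, an inner membrane protein, by 1.65 (SE 0.30, adjusted p = 0.00114). Ankle2, which helps recruit BAF after division, was lower (−0.69, SE 0.13, adjusted p = 0.00142). Of 5 nesprins and other SUN proteins tested there, Syne3 (−1.37, SE 0.25) and Syne2 (−0.91, SE 0.15) were lower in cKO and Syne1 was higher (0.87, SE 0.29). At polyA MII 1 of the 14 was higher in cKO and 4 were lower, beside 18.9% of all genes called. Those lower included Tor1a, the envelope ATPase torsinA (−1.53, SE 0.16, adjusted p = 2.98e-05), and its cofactor Tor1aip1 (−0.97, SE 0.22, adjusted p = 0.00649).

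With TMM scaling most nuclear pore genes rose during maturation in polyA libraries, and fewer did by library totals. In these libraries 18 of 29 rose and 4 fell from GV to MII in controls by the edgeR test (median 0.77, all genes −0.26), beside 42.5% of all genes called. In cKO 18 rose and 3 fell (median 0.78, all genes −0.33), beside 44.7%. The polyA change exceeded the RiboMinus change for 18 of 29 in controls and 19 of 29 in cKO, with none the other way, beside 22.8% and 20.7% of all genes called, and medians of 1.29 and 1.38 against 0.01 and −0.24 for all genes. With scaling by library totals 13 rose and 8 fell in controls and 14 rose and 7 fell in cKO, and the library difference was positive for 10 and negative for 2 in controls and positive for 8 and negative for 2 in cKO, beside 23.7% and 21.5% of all genes. Seh1l, a scaffold nucleoporin, differed by 3.5 (SE 0.40, edgeR adjusted p = 1.54e-06) in controls, and Tpr, of the nuclear basket, by 2.68 (SE 0.26, adjusted p = 7.13e-07) in cKO. By genotype 3 of 29 passed at polyA GV3h, with 1 higher and 2 lower, beside 25.2% of all genes called, and by library totals 8 were higher and 2 lower. Of 5 lamin maturation enzymes, Icmt, which methylates the processed lamin tail, rose by 0.92 (SE 0.15) and Rce1, a protease of the same pathway, fell by 2.33 (SE 0.32) from GV to MII in polyA controls, and the control library difference was 2.58 (SE 0.33) for Icmt.

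From GV to MII in polyA controls, where 42.5% of all genes were called, 5 of 18 lamina kinases and phosphatases rose and 3 fell, a share near that of all genes. By library totals 4 rose and 5 fell. Cdk1, the kinase that phosphorylates lamins at nuclear breakdown, had a polyA value of −3.52 (SE 0.15, edgeR adjusted p = 2.39e-10). Its control library difference (polyA change minus RiboMinus change) was −4.89 (SE 0.39). At polyA GV3h 3 of 18 were higher and 2 lower in cKO, also near the 25.2% of all genes. The largest called changes there were −6.25 for Prkcb (SE 1.45, edgeR adjusted p = 0.00536) and 3.1 for Nek9 (SE 0.72, adjusted p = 0.00538). Wee1, which inhibits CDK1, was higher by 2.05 (SE 0.53, adjusted p = 0.0101) and Plk1 was lower (−0.64, SE 0.14, adjusted p = 0.0033). Of 9 envelope resealing genes, 1 rose and 4 fell from GV to MII in polyA controls (0 and 4 by library totals), beside the same 42.5% of all genes. Chmp2a, an ESCRT-III subunit, was at −3.01 in polyA (SE 0.23, edgeR adjusted p = 4.24e-08), with a control library difference of −3.03 (SE 0.56). The library differences of Cdk1 and Chmp2a rest on 1 control female at RiboMinus MII. Of 11 chromatin partners, 5 rose and 2 fell (3 and 3 by library totals), with Rcc1 at 1.59 (SE 0.21) and Cbx1 at 1.54 (SE 0.14).

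**Figure D4:**
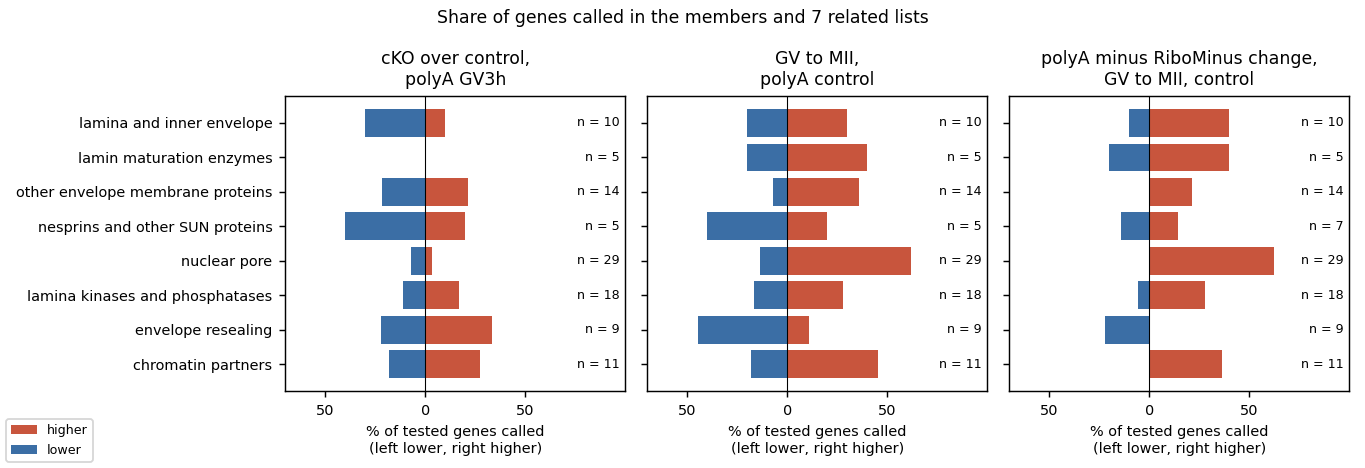
Share of tested genes called in the 10 members and 7 related lists, for cKO over control at polyA GV3h (left), GV to MII in polyA controls (middle) and the polyA minus RiboMinus difference of that change in controls (right). Bars to the right are genes called higher and bars to the left genes called lower, as a percentage of the n printed at the row's end. Nuclear pore genes have 18 of 29 called higher in the middle and right panels, and 13 and 10 with scaling by library totals (not drawn). The 1 member drawn as higher in the left panel is Lemd3.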

How the data were processed

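The members, lists and tests were chosen with earlier results of these data known. The authors deposited raw read counts per Ensembl gene, 1 file per oocyte, each with 5 summary lines (no feature, ambiguous and similar, 8.43% to 16.98% of polyA and 10.64% to 14.6% of RiboMinus reads), which were left out here. Per the submitters' processing notes the build was mm10 and the tools were cutadapt 2.5, FastQC 0.11.8, STAR 2.7.2a, SAMtools 1.9, HTSeq 0.9.1, R 3.5.1 and DESeq2 1.24.0. The strand setting, annotation release and any removal of amplified copies are not given in the sources used here. Symbols matched 55394 of 55573 identifiers, and exon lengths came from GENCODE vM21.

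Each sample is 1 oocyte, so counts were summed per female. edgeR 4.0.16 in R 4.3.3 (filterByExpr, TMM, two-sided quasi-likelihood F test, Benjamini-Hochberg over all genes) was fitted to 16 polyA females (19242 genes, 10 residual degrees of freedom), 7 RiboMinus females (25425 genes, 3) and all 23 (24777 genes, 13), and was tested on simulated data. SE is the log2 fold change divided by the root of F. The named genes are all 10 members and, per list, up to 4 called genes of a genotype comparison and up to 2 of another with the largest change. Alternatives were oocytes as replicates, only the groups compared, DESeq2 size factors, library totals, the DESeq2 1.42.0 Wald test, no filter and leaving out each female. No 2 libraries held identical counts. Summary scripts used Python 3.11.15 with pandas 2.3.3.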

Additional observations from a re-analysis of the deposited data

Results flagged for a closer look

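Among 60 tests for a lone extreme oocyte in groups of 4 to 10, of which chance alone marks about 1 in 20, 3 stood apart. Lmnb1 had 83.0 CPM in 1 V1126 oocyte of the RiboMinus GV cKO group, where the others had 31.5 to 53.2 CPM. Lbr had 1480 CPM in 1 polyA MII control oocyte. Banf1 had 88.4 CPM in 1 V1166 oocyte of the RiboMinus MII cKO group, where the other 3 had 61.9 to 65.2 CPM.

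The change from GV to MII differed between polyA and RiboMinus libraries, by the edgeR test of the difference itself, for Lbr (log2 difference 2.61 in controls and 2.13 in cKO), Sun1 (3.05 and 2.04), Lmnb1 (1.76 and 1.17) and Tmpo (0.89 and 1.05), each more positive in polyA, and for Banf1 in controls (−1.91). The control differences rest on 1 female for RiboMinus MII. With scaling by library totals the Tmpo differences and the cKO Lmnb1 difference did not pass. Leaving out single females often lost the Tmpo call in controls.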

How the results depend on the processing

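Of 26 called member values, the alternatives other than leaving out a female gave 156 values, 142 on the same side of the threshold and 14 that lost it. Leaving out females gave 474 values, of which 44 lost it. None changed direction. The number of members called, with Lemd3 counted here and in the ranges below, moved by over 1.5 times as follows. With oocytes as replicates it was 4 at polyA GV, 8 at GV3h, 5 at RiboMinus GV and 5 at RiboMinus MII for genotype, 6 in controls and 4 in cKO for RiboMinus GV to MII, and 3 for each GV to MII interaction, beside 35.8%, 44.0%, 25.8%, 34.6%, 19.4%, 22.4%, 16.9% and 14.8% of all genes. With only the groups compared it was 0 at polyA GV, 7 at GV3h, 6 for RiboMinus control maturation and 2 for the cKO library difference, beside 0.00555%, 39.7%, 27.9% (5732 genes, 2 in the shared fit) and 12.2% of all genes. DESeq2 size factors gave 2 at polyA GV and 0 at polyA MII, and library totals 1 at RiboMinus MII, beside 7.4%, 19.1% and 6.9% of all genes. With no filter it was 1 at RiboMinus GV, 3 at RiboMinus MII, 4 and 2 for RiboMinus control and cKO maturation, and 2 for the cKO library difference, beside 4.74%, 11.9%, 3.09%, 7.52% and 13.2% of all genes. DESeq2 gave 2 at polyA GV, 1 at RiboMinus GV, 3 at RiboMinus MII, and 4 and 3 for RiboMinus control and cKO maturation, beside 15.4%, 8.46%, 26.6%, 9.23% and 14.9% of all genes. The cause was not tested.

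Leaving out each female gave ranges, with the range of all genes called in the same fits in parentheses, of 0 to 2 members at polyA GV (0.529% to 9.03%), 3 to 6 at GV3h (15.7% to 27.5%), 0 to 1 at polyA MII (13.5% to 19.6%), 0 to 1 at RiboMinus GV (0.00798% to 4.71%) and 0 to 2 at RiboMinus MII (1.02% to 15.2%). For maturation they were 4 to 6 in polyA controls (28.6% to 43.0%) and cKO (31.9% to 46.6%) and 0 to 1 in RiboMinus cKO (0.0247% to 7.61%). For the library difference they were 4 to 6 in controls (18.1% to 25.7%) and 3 to 4 in cKO (15.9% to 24.3%). Library totals moved 13 of 100 group levels by over 1 SD. The same scaling shifted the median log2 value of all genes: to 0.267 (main 0.078) for genotype in polyA GV, 0.294 (0.067) in GV3h, −0.692 (−0.26) and −0.855 (−0.332) for polyA control and cKO maturation, and −0.934 (−0.237) for the cKO library difference. The share of calls that were higher went from 47.0% to 74.2%, 49.5% to 70.5%, 39.5% to 21.4%, 40.5% to 20% and 55.8% to 20.7% in these, from 49.5% to 65.9% for genotype in RiboMinus MII, from 47.7% to 28.2% for the control library difference and from 81.8% to 68.9% for the polyA GV to MII interaction. For the named related genes, library totals kept 102 calls and lost 10, and size factors kept 110 and lost 2, with none reversed. Counts over all genes also moved: 1420 genes at polyA GV became 1 with only the groups compared and 5798 with oocytes as replicates, and 8 at RiboMinus GV became 4922 with oocytes and 1567 with DESeq2. No paired analysis was possible because genotype does not vary within a female, oocyte numbers restart in each female, and the labels used here state no litter or other link between cKO and control females. Adjacent animal numbers were not taken as pairs.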
